A study of Rattus norvegicus with 9 samples.

Results

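The replication-dependent histone genes were taken as every gene of the deposited annotation whose symbol begins with Hist1h, Hist2h, Hist3h, H2ac, H2bc, H3c or H4c. This rule uses names and no measured value, and it found 45 of 41801 genes, of which 18 carry H2A names, 17 H2B names, 5 H3 names and 5 H4 names. At least 1 UMI (unique molecular identifier, 1 captured RNA molecule) was counted for 39 of them, namely 17 H2A, 13 H2B, 4 H3 and 5 H4 genes, and the other 6 are pseudogenes by name and had no UMI in any library. The members held 1125797 UMIs in 110490 cells, and the 10 highest members held 65.6% of these.

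These genes encode the core histones that package newly copied DNA, and they are transcribed together as a cell enters S phase, largely from gene clusters read by the coactivator NPAT. Their messages end in a conserved stem-loop bound by SLBP in place of a poly(A) tail, and they are degraded quickly when DNA synthesis stops. In bone marrow the main dividing cells are large pre-B cells, erythroid precursors and granulocyte-monocyte progenitors (GMP), and histone messages are known there as markers of cells in S phase. The libraries were primed on poly(A), so only molecules with a tail or an internal run of A could be captured, and every level below is of that captured fraction.

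The sequenced rats were male Sprague-Dawley animals aged 6 to 8 weeks with a 3-mm circular osteotomy in the proximal tibia and a 4-mm full-thickness wound on the back of the foot on the same side. Both the TO and the TOE group carried both injuries, and the tissue sequenced was that of the osteotomy site. Rats labelled TO had no further treatment, and rats labelled TOE had radial extracorporeal shock wave therapy at the osteotomy on days 2 and 4, so that the libraries labelled TOE 2d followed the day 2 session alone. The 8 libraries analysed were TO 2d 0h (the baseline before any shock wave), TO 2d 4h, TO 4d 4h, TO 4d 24h, TOE 2d 4h, TOE 2d 24h, TOE 4d 4h and TOE 4d 24h, where the second number is the hours between the session, or its time point in untreated rats, and collection. TO 2d 24h was not analysed here.

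Each condition was 1 library of 12451 to 17187 barcodes and 95954800 to 144146202 UMIs, and the labels do not say whether a library pooled animals. The question put to the data was whether the histone genes differ between the 4 libraries collected at 4 h and the other 4, collected at 0 h or 24 h. The test took libraries of different arm and day as replicates of an hour, so its p-values measure only the spread between these libraries, and the hour cannot be told apart from anything else shared by the libraries of 1 collection time, such as the handling of the tissue. Of 115096 distinct barcode sequences, 1601 occurred in 2 or more libraries. TOE 4d 24h stood apart from the other libraries, with no late erythroid-like cell and the highest tRNA counts, and counts without it are given where they moved a result. Most cells were haematopoietic by their markers, with 5638 mesenchymal-like and 377 endothelial-like cells of 110490. Of the mesenchymal-like cells 4244 lay in a cluster with a median of 775 UMIs, and at Leiden resolution 2 the clusters so named held only 88, 359, 831 and 1108 cells, beside an unnamed cluster of 3161 cells led by genes that include the platelet genes Pf4 and Gp9. Cell classes were named "-like" from fixed marker genes after clustering without the 45 members, and a level is given in CPM, UMIs per 1000000 UMIs of that class in that library. Members share long stretches of near-identical coding sequence, so how the authors' counting split reads between copies is uncertain for every single gene, and levels were not compared between genes beyond the ranking used to choose which members to name. Fewer transcribing cells and fewer molecules per cell cannot be told apart in sums over a class.

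Promoters of 2 members that fell steeply at 4 h and 2 that did not pass the test are shown, chosen after their values were seen, so that the motifs searched can be read in place. RefSeq listed a start site for 36 of the 45 members on assembly GRCr8, 27 of them on chromosome 17, 7 on chromosome 2 and 2 on chromosome 10. The sequences are the 250 bases before the start site, 5′ to 3′ on the gene's strand, with matches to ATTTGCAT (the octamer bound by OCT1), CCAAT and TATAAA on either strand in capitals. Hist1h2ah lies at chr17:41812128-41812377, Hist1h3b at chr17:47418946-47419195, Hist1h2ac at chr17:47174365-47174614 and Hist2h2be at chr2:186469202-186469451, all on the plus strand. Hist1h2ah and Hist1h3b fell steeply, whereas Hist1h2ac and Hist2h2be did not pass the test although a partner gene read from the same interval did.
Hist1h2ah: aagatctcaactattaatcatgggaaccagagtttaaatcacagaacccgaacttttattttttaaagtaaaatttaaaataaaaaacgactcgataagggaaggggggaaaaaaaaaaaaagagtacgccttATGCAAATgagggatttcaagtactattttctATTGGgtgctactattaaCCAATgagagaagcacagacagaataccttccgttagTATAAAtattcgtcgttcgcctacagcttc
Hist1h3b: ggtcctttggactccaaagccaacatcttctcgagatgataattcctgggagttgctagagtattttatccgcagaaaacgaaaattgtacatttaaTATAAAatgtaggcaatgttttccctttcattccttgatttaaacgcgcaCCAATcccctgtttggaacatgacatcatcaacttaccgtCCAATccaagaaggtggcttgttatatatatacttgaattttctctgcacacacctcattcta
Hist1h2ac: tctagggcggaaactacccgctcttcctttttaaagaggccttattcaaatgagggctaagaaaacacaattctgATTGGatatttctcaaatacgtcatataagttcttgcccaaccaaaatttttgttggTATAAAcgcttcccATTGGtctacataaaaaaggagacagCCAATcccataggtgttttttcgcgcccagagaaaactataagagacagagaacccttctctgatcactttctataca
Hist2h2be: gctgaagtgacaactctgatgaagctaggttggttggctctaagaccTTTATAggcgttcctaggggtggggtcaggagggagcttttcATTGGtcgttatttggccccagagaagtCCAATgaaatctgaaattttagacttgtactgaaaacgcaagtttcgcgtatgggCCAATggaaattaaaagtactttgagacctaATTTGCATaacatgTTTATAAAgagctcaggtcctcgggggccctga

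In the windows from 250 bases before to 50 bases after the start site, the octamer was present in 36.1% of the 36 members and in 1.78% of all 33469 listed promoters. CCAAT was present in 91.7% of members and in 37.5% of all promoters, and TATAAA in 58.3% and 14.2%. The 36 windows are not all separate sequences, since 6 divergent pairs of members, described below, share 237 to 287 bases. A match in such a shared stretch was counted for both genes. A match is a description of letters and not of binding. The windows were matched by symbol to an assembly other than that of the counts, and the one listed for H4cl1, kept among the 36, appears to hold coding sequence. For the hour comparison in cycling pre-B-like cells, the median log2 fold change was −1.73 with the octamer (13 genes) and −1.70 without (23 genes), −1.70 with CCAAT (33 genes) and −1.84 without (3 genes), and −1.66 with TATAAA (21 genes) and −1.73 without (15 genes).

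Cycling pre-B-like cells were 13.1% of all cells and held 53.6% of the members' UMIs, at 41.8 UMIs per cell. Early erythroid-like cells carried 33.9 member UMIs per cell, GMP-like cells 15.5, plasmacytoid dendritic-like cells 12.5 and late erythroid-like cells 12.4. Monocyte-like cells, with 8.38 per cell, held 8.56% of the members' UMIs, and pro-B-like cells had 8.04 and immature neutrophil-like cells 7.40 per cell. The plasmacytoid dendritic-like cluster held 1882 cells, but at resolution 2 the cluster of that name held 596 and one named from stem and progenitor markers held 1440, and the share of progenitors in its value was not tested. The resting small pre-B-like cells had 2.86, the immature/mature B-like cells 2.44 and the mature neutrophil-like cells, which no longer divide, 2.31 per cell. These counts rise with depth, since the median depth per library was 9384.5 to 42696 UMIs in early erythroid-like and 2977 to 4542.5 in mature neutrophil-like cells.

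In cycling pre-B-like cells, the summed level of the members was lower in every 4 h library than in every other library. It was 4903 CPM in TO 2d 0h, 3977 in TO 4d 24h, 4815 in TOE 2d 24h and 4839 in TOE 4d 24h, against 2318 in TO 2d 4h, 1805 in TO 4d 4h, 1359 in TOE 2d 4h and 1676 in TOE 4d 4h. The groups did not overlap, with means of 4634 ± 439 and 1790 ± 399 CPM (SD, n = 4 each), 2.59-fold apart. The summed level was also lower at 4 h without overlap in 13 of the 16 classes that could be compared, and the groups overlapped in pro-B-like, early erythroid-like and mast cell/basophil-like cells. All of these classes come from the same 8 libraries, so they are not separate results. How many other genes split the libraries in this way was not counted.

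**Figure D1:**
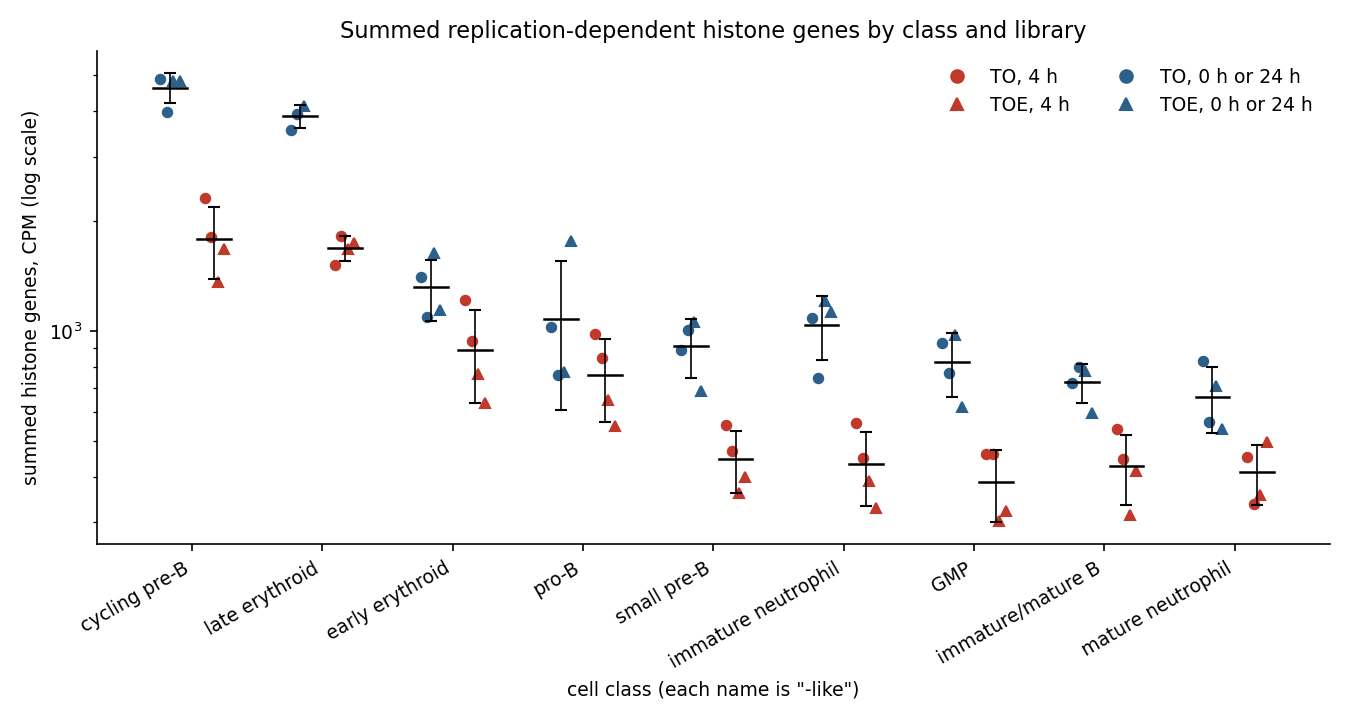
Summed level of the 45 histone genes in CPM (log axis) for 9 cell classes, 1 point per library, red for 4 h and blue for 0 h or 24 h, circles for TO and triangles for TOE, with bars for the mean ± SD. In cycling pre-B-like cells the 4 h libraries sit between 1359 and 2318 CPM and the others between 3977 and 4903, whereas pro-B-like and early erythroid-like libraries overlap.

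The lower level ran through all 4 core histone families in cycling pre-B-like cells, without overlap between the hours in any of them. H2A genes summed to 1879 ± 163 CPM at other hours and 884 ± 236 at 4 h, and H2B genes to 1265 ± 169 and 441 ± 105 (SD, n = 4). H3 genes summed to 568 ± 109 and 143 ± 21.9 CPM, and H4 genes to 921 ± 189 and 322 ± 42.9. The ratio of 4 h to other hours was therefore 0.471 for H2A, 0.348 for H2B, 0.252 for H3 and 0.349 for H4, and these ratios were not tested against each other.

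Gene by gene, 31 of the 39 members tested in cycling pre-B-like cells fell at 4 h and none rose (edgeR quasi-likelihood test, Benjamini-Hochberg adjusted p under 0.05), where 7.06% of all 16765 genes tested fell and 7.87% rose. The median log2 fold change was −1.72 over the members and 0.01 over all genes tested. DESeq2 also called 31, all lower, where it called 10% of genes lower. With the 4 sets of arm and day as a block in place of separate terms, 29 were called. The share of all genes called was computed only for the main edgeR fit and DESeq2.

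The naming rule took the highest members and also members called in 2 or more classes in this same comparison. For members named only by such calls, a fall was largely fixed by the choice. Hist1h2ah, an H2A gene, had the steepest fall among the members named by rule. It stood at 427 CPM in TO 2d 0h, 420 in TO 4d 24h, 408 in TOE 2d 24h and 497 in TOE 4d 24h. At 4 h it stood at 58.7 CPM in TO 2d 4h, 62.8 in TO 4d 4h, 50.4 in TOE 2d 4h and 56.8 in TOE 4d 4h. The 2 groups were far apart and each was tight, with a log2 fold change of −3.01 ± 0.12 (SE) and an adjusted p of 3.22e-05 by edgeR. Hist1h3b, an H3 gene, stood at 177, 137, 195 and 112 CPM in TO 2d 0h, TO 4d 24h, TOE 2d 24h and TOE 4d 24h and at 44.0, 38.0, 22.2 and 40.1 in TO 2d 4h, TO 4d 4h, TOE 2d 4h and TOE 4d 4h. Its hours did not overlap either, and it fell by 2.17 ± 0.24 (adjusted p = 0.00282).

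H2bc6, an H2B gene, was at 64.9, 46.2, 68.9 and 99.6 CPM in the 0 h and 24 h libraries in the same order and at 15.5, 14.5, 12.7 and 12.7 at 4 h. No 4 h library reached the lowest of the others, and it fell by 2.37 ± 0.22 on the log2 scale (adjusted p = 0.00163). Among the H3 genes, Hist2h3c2 was at 227, 132, 218 and 299 CPM against 59.6, 55.0, 48.5 and 65.0, a change of −1.98 ± 0.21 (adjusted p = 0.00254). H3c13 changed by −2.06 (means of 111 and 27.7 CPM at other hours and 4 h) and H3c1 by −1.93 (82.2 and 22.3), both without overlap.

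H4cl1, an H4-named member, was at 537, 449, 528 and 687 CPM at 0 h and 24 h and at 204, 184, 157 and 161 at 4 h. It fell by 1.70 ± 0.16 (adjusted p = 0.00164), and the 4 h values again formed a narrow low group. Hist1h4m changed by −2.06 and H4cl3 by −1.74, both without overlap. Hist2h4 passed the test at −1.30 ± 0.33 (adjusted p = 0.0341) although TO 4d 24h, at 40.4 CPM, lay below TO 2d 4h, at 46.3, and it no longer passed under the stricter cell filter (adjusted p = 0.0733) or without TO 2d 0h, TO 2d 4h, TO 4d 4h, TOE 2d 4h or TOE 4d 4h (−1.55 to −0.96, adjusted p = 0.0676 to 0.129). Hist1h4b did not pass (−0.37 ± 0.17, adjusted p = 0.177), with 38.1 to 63.0 CPM at other hours and 33.9 to 49.4 at 4 h.

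Most of the other H2B genes named by rule fell as well, but Hist1h2bd, Hist1h2bg, Hist1h2bc and Hist1h2bo were named only because they were called in 2 or more classes. Their falls were thus largely fixed by the choice. H2bc12 was at 233, 183, 238 and 264 CPM at other hours and at 83.0, 64.0, 52.3 and 65.7 at 4 h, a change of −1.86 ± 0.17 (adjusted p = 0.00163). Changes of −1.97 for Hist1h2bd, −1.96 for Hist1h2bg, −1.81 for Hist1h2bc, −1.73 for Hist1h2bq, −1.66 for Hist1h2bo and −1.29 for H2bc18 passed too, none with overlap. Hist3h2ba, at 33.2 to 110 CPM against 32.3 to 55.4, overlapped and did not pass by edgeR (−0.85 ± 0.31, adjusted p = 0.0963), but DESeq2 called it (adjusted p = 0.0241), and so did edgeR without TOE 4d 24h (−1.09, adjusted p = 0.00889). Hist1h2bq no longer passed without TO 4d 24h (adjusted p = 0.0508).

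The H2A genes held both steep and shallow falls. Hist1h2an (−2.08) and H2ac4 (−1.83) fell steeply and H2ac10 fell by 1.10, all 3 without overlap, whereas H2ac20 and H2ac23 fell less and overlapped between the hours. H2ac20 was at 406, 328, 276 and 333 CPM at other hours and at 277, 214, 166 and 157 at 4 h, a change of −0.82 ± 0.14 (adjusted p = 0.0120). H2ac23 changed by −0.85 ± 0.21 (adjusted p = 0.0332), with TOE 4d 24h at 249 CPM inside the 4 h range of 161 to 317. It passed in only 2 of the 8 fits with a library left out, those without TOE 4d 24h or TOE 4d 4h, and in the other 6 the change was −0.93 to −0.69 (adjusted p = 0.0680 to 0.120), and it did not pass with the arm and day sets as a block (adjusted p = 0.0505). H2ac10 and H2ac20 no longer passed without TO 2d 0h (adjusted p = 0.0540 and 0.0594) or TO 4d 4h (0.0636 and 0.0652).

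**Figure D2:**
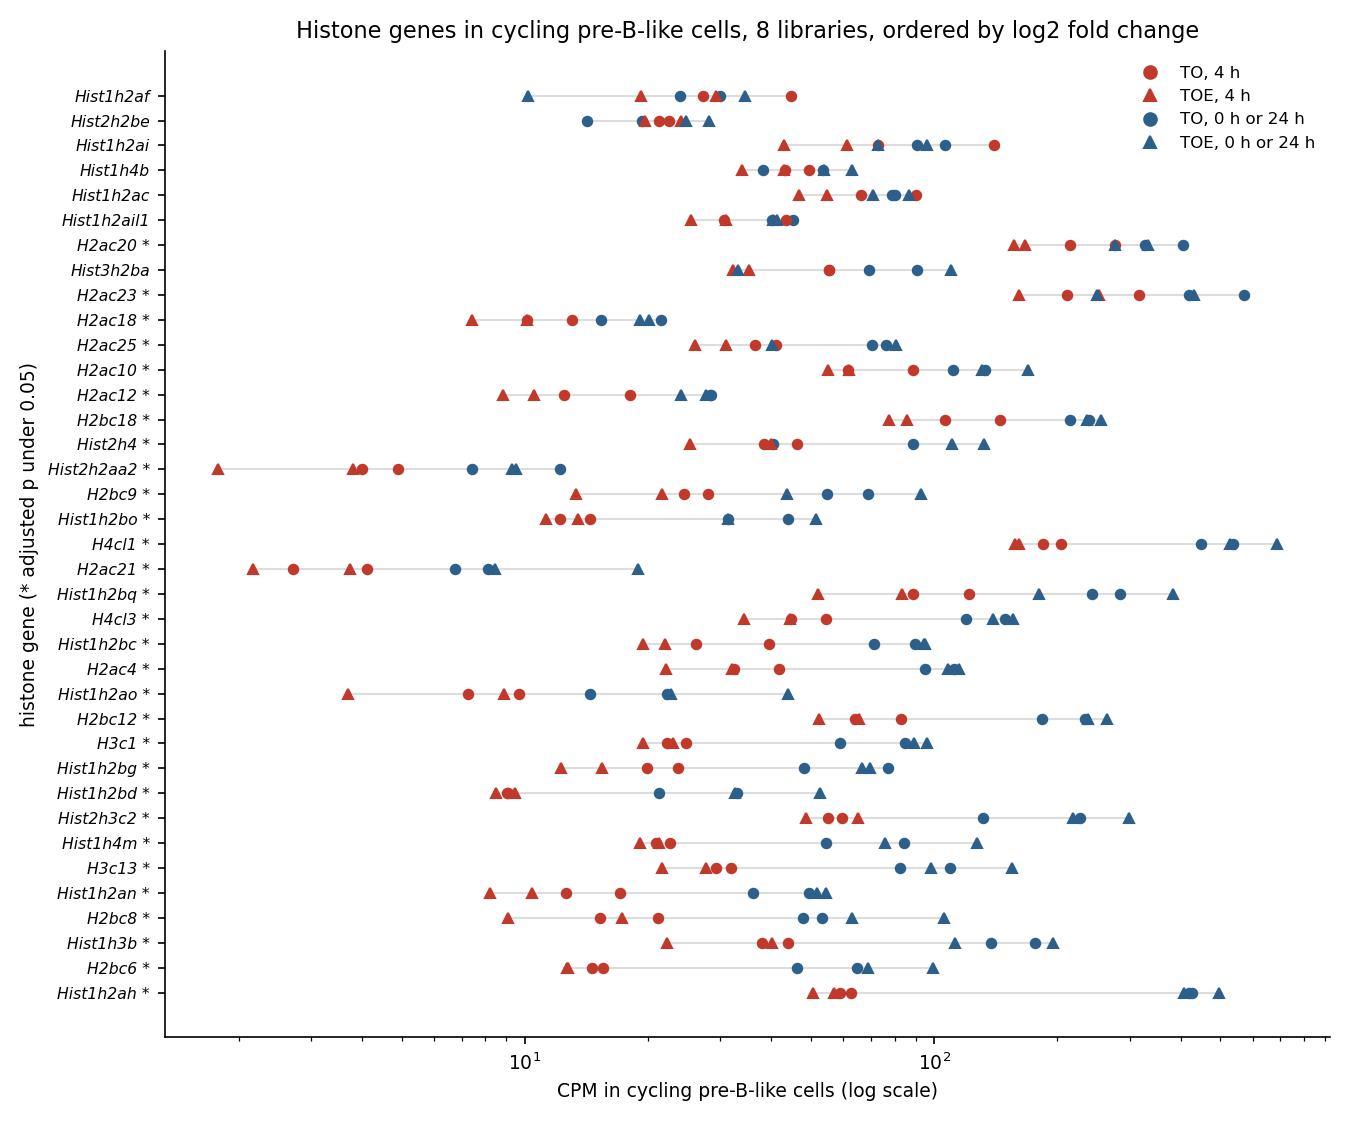
Level of each member with a mean of at least 1 CPM in cycling pre-B-like cells (log axis), 1 point per library, red for 4 h and blue for 0 h or 24 h, ordered by log2 fold change, with an asterisk for an edgeR adjusted p under 0.05. Hist1h2ah, with 50.4 to 62.8 CPM at 4 h against 408 to 497, is farthest apart, and Hist1h2af and Hist2h2be at the other end overlap.

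Of the 8 members tested that did not pass, Hist1h2ac, Hist1h2ai, Hist1h2ail1, Hist1h2af, Hist2h2be and H2ac1 are outside the naming rule and were chosen after their values were seen. Hist1h2ac was at 71.0 to 86.9 CPM at other hours and 46.7 to 90.4 at 4 h (−0.40, adjusted p = 0.159), and Hist1h2ai at 72.8 to 106 and 42.9 to 140 (−0.36, adjusted p = 0.335). Hist1h2ail1 gave −0.44 (adjusted p = 0.0844) and Hist2h2be −0.01 (adjusted p = 0.978), the latter at 14.2 to 28.2 and 19.7 to 24.1 CPM. Hist1h2af was at 10.2 to 34.5 CPM and 19.2 to 44.6 (0.22, adjusted p = 0.690). All 5 overlapped between the hours, and H2ac1 was under 2 CPM throughout.

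Several of these sit in divergent pairs, in which an H2A and an H2B gene are read in opposite directions from 1 interval of 214 to 264 bases between their start sites. There were 6 such pairs on GRCr8, chosen by position. Within 4 of them only 1 gene passed the test in cycling pre-B-like cells. H2bc9 changed by −1.63 beside Hist1h2ac at −0.40, Hist1h2bo by −1.66 beside Hist1h2ai at −0.36, and H2ac20 by −0.82 beside Hist2h2be at −0.01. Within 2 pairs both passed, with −1.86 for H2bc12 beside −1.23 for H2ac12 and −1.96 for Hist1h2bg beside −1.10 for H2ac10. In the fourth pair with 1 call, both genes lay under 2 CPM, and H2bc1 passed at −2.31 (adjusted p = 0.0417) while H2ac1 did not (adjusted p = 0.0719). The differences within pairs were not tested.

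The S phase genes of the same cells overlapped between the hours. The 36 genes of the S phase list, which copy DNA or supply nucleotides and hold no histone gene, summed to 5557, 5804, 5553 and 4968 CPM in TO 2d 0h, TO 4d 24h, TOE 2d 24h and TOE 4d 24h and to 4997, 5102, 5806 and 5090 in the 4 h libraries. These groups overlapped, at 5471 ± 355 and 5249 ± 374 CPM (SD, n = 4). For each UMI of the S phase list there were 0.882, 0.685, 0.867 and 0.974 histone UMIs at other hours and 0.464, 0.354, 0.234 and 0.329 at 4 h, in the library order used above. The ratio thus separated the hours without overlap, at 0.852 ± 0.121 and 0.345 ± 0.094. Summed G2 and M phase genes also overlapped, at 7502 ± 858 and 7422 ± 1286 CPM. Several genes of that list, such as Mki67 and Top2a, were also markers used to name this class. Their levels are therefore not independent of how the class was chosen. Mki67, read singly from that list, was higher at 4 h without overlap, at 1018 to 1385 CPM and 809 to 954 at other hours. It did not pass the edgeR test, and the median log2 fold change of the 30 genes of the list was −0.18.

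**Figure D3:**
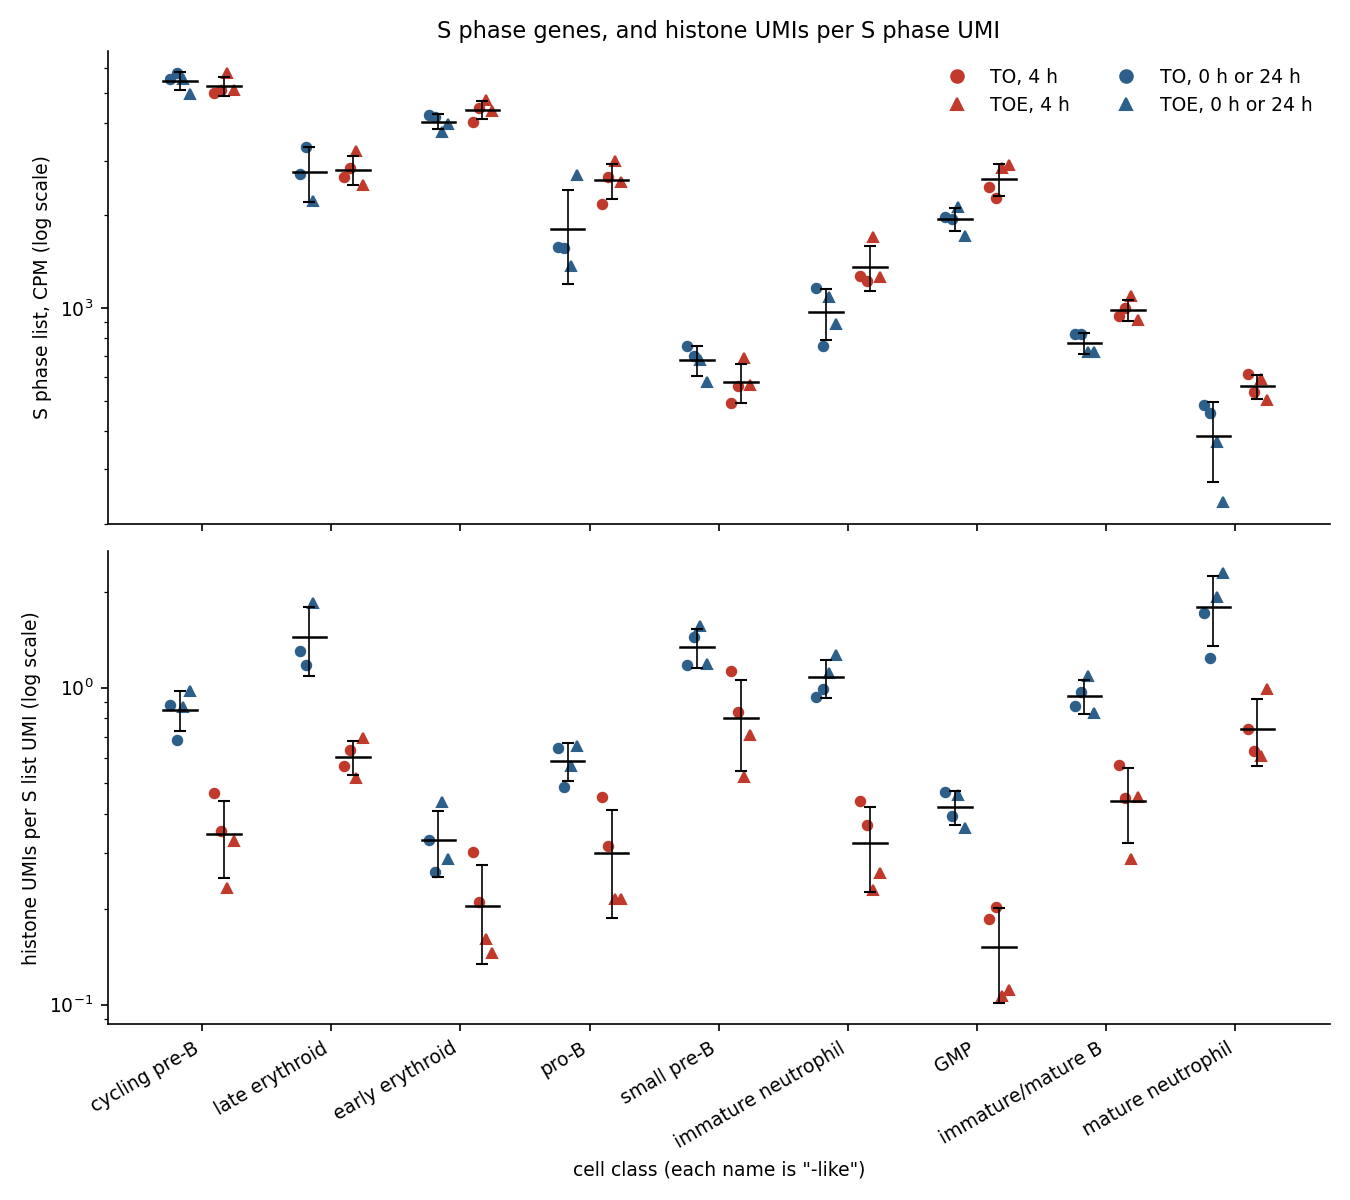
Summed CPM of the S phase list (one panel) and histone UMIs per UMI of the S phase list (the other panel) by cell class and library, red for 4 h and blue for 0 h or 24 h. In cycling pre-B-like cells the S phase levels overlap, while the ratio lies between 0.234 and 0.464 at 4 h and between 0.685 and 0.974 at other hours.

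Among the cycling pre-B-like cells, 4 of 36 S phase genes fell and none rose, where 7.06% of all genes fell and 7.87% rose. The primase gene Prim1 (−0.53) and the clamp loader gene Rfc2 (−0.58) were among those that fell. So small a count is not read as a shift of the list. None of 30 G2 and M phase genes passed in either direction. None of 9 genes for histone gene transcription passed, Npat included, which stood at 72.6 to 92.1 CPM at other hours and 106 to 128 at 4 h (0.36, adjusted p = 0.0711). Of 17 genes for 3′ end processing, Snrpe (−0.59) and Snrpg (−1.06), which encode core proteins of small nuclear ribonucleoproteins, fell and Snrpb (0.40), another of these, rose. The stem-loop binding protein gene Slbp did not pass (−0.30, adjusted p = 0.200), at 231 to 357 and 262 to 280 CPM.

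Of 7 histone mRNA decay genes, the uridylyltransferase gene Tut4 rose by 0.60, and of 16 histone chaperone genes Hira, which deposits H3.3 outside replication, rose by 0.57. In this class 7.06% of all genes fell and 7.87% rose, so single rises are no result about these lists. Among replication-independent variants 3 of 10 fell, including H3f3b, an H3.3 gene, at 4175, 4096, 4296 and 1384 CPM in TO 2d 0h, TO 4d 24h, TOE 2d 24h and TOE 4d 24h and at 1348 to 1726 at 4 h. TOE 4d 24h thus lay among the 4 h libraries for H3f3b (−1.15, adjusted p = 0.0356). Of 5 linker histone genes, H1f2 (−1.17) and H1f6 (−1.82) fell, and H1f4 rose by 0.45, with overlapping levels of 1332 to 1770 CPM at other hours and 1633 to 3108 at 4 h.

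Cluster membership differed strongly between the libraries in this class, and values within clusters are given for that reason. At 4 h, cluster 3 held 70.2% of the cycling pre-B-like cells, cluster 4 26.6% and cluster 5 3.17%, and at other hours 1.67%, 38.5% and 59.9%. These shares pool cells over libraries that differed. TOE 4d 24h had 1679 of its 1832 cells in cluster 4 and 120 in cluster 5. Cluster 5 held 1412 of 1818 cells in TO 2d 0h, 1370 of 1591 in TO 4d 24h and 854 of 1032 in TOE 2d 24h. TOE 2d 4h had 1455 of 3117 in cluster 4. Within cluster 3 the summed members were at 1229 to 2087 CPM at 4 h and at 2038 to 2397 in the 3 other libraries with at least 20 cells, and within cluster 4 at 1428 to 1923 and 1826 to 4798, so both overlapped. Cluster 5 went the other way, at 8856 to 17602 CPM at 4 h (259 cells in all) and 4223 to 5845 at other hours, with 2975 to 4105 UMIs per cell at 4 h and 13412 to 18507 at other hours. Although the members took no part in the clustering, they lead the genes that set cluster 5 apart, so its sizes and levels are no finding. Histone genes outside the name rule were not removed before clustering, and one of them, H4f3, is also among the leading genes of cluster 5. The clustering was therefore not free of histone genes. When cells were assigned by gates on the UMIs of single cells and no clusters, 11 members were called in cycling pre-B-like cells and all 11 fell (median log2 fold change −1.48). The gates took partly other cells, since 10707 of the 18054 cells they placed there were in the cycling pre-B-like clusters. Of the members named by rule, 12 no longer passed under the gates, including H2bc6 (−2.13, adjusted p = 0.0578), Hist2h3c2 (−1.80, 0.0596), H3c13 (−1.79, 0.0643) and H4cl1 (−1.53, 0.0594).

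The members were also counted per cell at equal depth. After each cell was thinned to 2000 UMIs, with 450 shallower cells left out at 4 h and 105 at other hours, 77.5 to 89.9% of cycling pre-B-like cells had a member UMI at 4 h and 89.1 to 94.9% at other hours, and these overlapped. Unthinned shares were 96.1 to 98.1% and 98.1 to 99.9%. The mean number of member UMIs per thinned cell was 4.60 ± 1.22 at 4 h and 12.6 ± 2.77 at other hours (SD, n = 4), without overlap. In cells with at least 3 UMIs of the S phase list it was 4.87 and 13.1, and in cells with none it was 1.77 and 4.38 (3 libraries at other hours), also without overlap.

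Thinned small pre-B-like cells carried a member UMI in 43.9 to 58.9% of cells at 4 h and 65.6 to 80.0% at other hours (unthinned 61.0 to 75.5% and 80.8 to 92.3%), with 1694 and 1736 cells too shallow. Thinned GMP-like cells did so in 39.4 to 54.5% and 58.7 to 73.9% (unthinned 93.8 to 96.0% and 90.9 to 97.2%), with 7 and 42 too shallow. The shares in mature neutrophil-like cells, taken as the class that should hold least histone message, were 43.0 to 51.6% and 58.3 to 67.7% (unthinned 62.6 to 71.6% and 69.3 to 81.9%), with 219 and 489 too shallow. Median unthinned depths were 3576.5 to 4274.5 UMIs in small pre-B-like, 15884 to 41410 in GMP-like and 2977 to 4542.5 in mature neutrophil-like cells. Shares in small pre-B-like and GMP-like cells overlapped those of mature neutrophil-like cells and are not read as expression, and how far molecules free in the suspension contributed was not tested.

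Markers of other cell types moved with the hour inside cycling pre-B-like cells. The 8 mast cell/basophil genes summed to 4.99 to 13.2 CPM at 4 h and 19.5 to 58.2 at other hours, with 2 of 7 tested falling, and the 8 plasma cell genes to 282 to 428 and 625 to 1026, with 1 of 8 falling. The 9 T/NK cell genes (81.0 to 120 and 122 to 151 CPM, 1 of 6 falling) were likewise lower without overlap, whereas the 12 mesenchymal genes (401 to 577 and 574 to 1158, 5 of 10 falling) overlapped. The 8 small pre-B genes were higher at 4 h, at 3471 to 4397 and 2246 to 3183 CPM. The 8 plasmacytoid dendritic genes were also higher without overlap (810 to 829 and 516 to 777 CPM), although 1 of the 7 tested fell. The 8 endothelial genes (39.8 to 59.6 and 16.5 to 40.0 CPM, 1 of 7 rising) and the 9 mature neutrophil genes (794 to 1264 and 1040 to 2660 CPM, 2 of 9 falling) overlapped. No gene of these lists was at 0 in every library. The median depth of cycling pre-B-like cells was 9720 to 10887 UMIs at 4 h and 11298.5 to 14965 at other hours. The part of these differences in the histone result was not tested.

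Among the other B cell stages, small pre-B-like cells showed the histone difference at a lower level. The summed members were at 887, 1009, 1060 and 686 CPM in TO 2d 0h, TO 4d 24h, TOE 2d 24h and TOE 4d 24h and at 555, 471, 360 and 398 in TO 2d 4h, TO 4d 4h, TOE 2d 4h and TOE 4d 4h. The hours did not overlap, at 910 ± 166 and 446 ± 86.0 (SD, n = 4). The 4 h sums overlapped those of mature neutrophil-like cells, which no longer divide, at 4 h (337 to 497 CPM). The same holds for the 4 h sums of immature/mature B-like, GMP-like and immature neutrophil-like cells below. At other hours the sums of all these classes, and of pro-B-like cells, overlapped those of mature neutrophil-like cells too. How far molecules free in the suspension contributed to these sums was not tested. Of 36 members tested, 25 fell and none rose (edgeR), where 10.4% of all genes fell and 8.43% rose, with a median log2 fold change of −1.34. Hist1h2ah was at 29.3 to 52.8 CPM and 4.99 to 8.81 (−2.78, adjusted p = 0.00106). In this class 9 of 36 S phase genes and all 4 linker histone genes tested also fell.

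Small pre-B-like calls depended on single TO libraries, with 12 called without TO 2d 0h, 11 without TO 2d 4h, 11 without TO 4d 24h and 10 without TO 4d 4h. At 4 h 69.8% of these cells were in cluster 1, and at other hours 64.6% were in cluster 0. These shares pool libraries that differed. TOE 4d 24h had 3713 of its 3822 cells in cluster 2 and 60 in cluster 0, and TOE 2d 4h had 2644 of 4920 in cluster 2. Within cluster 0 the summed members overlapped, at 647 to 1213 CPM at 4 h (204 cells) and 774 to 1108 at other hours. They did not overlap within cluster 1, at 408 to 564 and 602 to 1094 CPM (402 cells at other hours), or within cluster 2, at 277 to 423 and 602 to 686. Of the markers of other cell types in this class, the mesenchymal genes summed to 252 to 395 CPM at 4 h and 678 to 1461 at other hours (5 of 10 falling), the mast cell/basophil genes to 5.68 to 14.0 and 23.1 to 75.9 (2 of 6 falling) and the T/NK cell genes to 36.6 to 54.5 and 69.2 to 102 (2 of 6 falling). The plasmacytoid dendritic genes were higher at 4 h, at 1507 to 1658 and 1011 to 1402 CPM, with 2 of 7 falling, and none of these lists overlapped. The mitochondrial share of UMIs was lower at 4 h without overlap (medians of 2.01 to 2.82% and 3.37 to 4.94%), and the part of these differences was not tested.

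In immature/mature B-like cells the summed members were at 722, 797, 779 and 598 CPM at other hours and at 539, 447, 314 and 414 at 4 h, with no overlap. Of 37 members 17 fell and none rose, against 6.86% of all genes falling and 6.96% rising, and the median log2 fold change was −1.03. Here the S phase list was higher at 4 h without overlap (915 to 1092 CPM, 718 to 824 at other hours), and Npat, Casp8ap2 and Cdk2 of the transcription list rose. The count was 4 without TO 2d 0h, 5 without TO 2d 4h, 5 without TO 4d 24h, 2 without TO 4d 4h, 9 without TOE 2d 24h, 6 without TOE 2d 4h and 26 without TOE 4d 24h, and 9 with the sets of arm and day as a block. Cluster 14 held 75.3% of the cells at 4 h and cluster 9 72.1% at other hours. These shares pool libraries, and TOE 4d 24h had 974 of its 1145 cells in cluster 10 and 138 in cluster 9. The plasma cell genes Igha and Jchain lead cluster 9, and at resolution 2 they lead a separate plasma cell cluster of 326 cells. Within cluster 9 the summed members overlapped (416 to 708 CPM at 4 h and 418 to 819 at other hours), and within clusters 10 (212 to 464 and 495 to 633) and 14 (378 to 539 and 619 to 929) they did not. The mitochondrial share was again lower at 4 h (2.21 to 3.05% and 3.75 to 5.42%). Of the markers of other cell types, the mesenchymal genes (287 to 459 CPM at 4 h and 761 to 1541 at other hours, 5 of 10 falling) and the mast cell/basophil genes (4.43 to 11.6 and 23.5 to 79.5, 2 of 2 falling) were lower without overlap. The part of these differences was not tested.

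Pro-B-like cells, the earliest B stage here and a single cluster, gave calls whose number moved with the settings. The summed members overlapped, at 1023, 760, 774 and 1764 CPM at other hours and 980, 845, 649 and 551 at 4 h, with TOE 4d 24h far above the rest. Of 36 members tested 5 fell and 1 rose, against 4.26% of genes falling and 4.1% rising, and the median log2 fold change was −0.71. A single rise among 36 members is no more than that share of all genes. No member rose with the sets of arm and day as a block, at resolution 2 or under gates. None rose without TO 2d 0h, TO 2d 4h, TO 4d 24h or TO 4d 4h either. By DESeq2, and without TOE 2d 4h or TOE 4d 4h, 1 rose. The member that rose, Hist1h2af (chosen after its values were seen), was at 6.28, 4.39, 8.58 and 1.70 CPM at other hours and between 12.2 and 19.3 in every 4 h library, without overlap (1.47 ± 0.32, adjusted p = 0.0260).

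In pro-B-like cells 7 of 36 S phase genes rose (4.1% of all genes rose), and the ratio of histone to S phase UMIs did separate the hours, at 0.484 to 0.653 and 0.215 to 0.452. The count was 1 without TO 2d 0h, 2 without TO 2d 4h, 2 without TO 4d 24h, 1 without TO 4d 4h, 3 without TOE 2d 4h, 3 without TOE 4d 4h and 13 without TOE 4d 24h, of which 7 were lower and 6 higher at 4 h. With the sets of arm and day as a block it was 2. It was 21 at resolution 2, all lower, and 20 without a filter on low counts, 17 lower and 3 higher. It was 27 when pro-B cells were assigned by gates, all of them lower at 4 h, and 2155 of the 4027 cells so assigned were in the pro-B-like cluster. Among markers of other cell types, the mesenchymal genes (434 to 705 CPM at 4 h and 735 to 1435 at other hours, 4 of 7 falling), the plasma cell genes (166 to 193 and 360 to 495, 1 of 6), the T/NK cell genes (109 to 129 and 166 to 285, 1 of 5) and the mast cell/basophil genes (9.06 to 18.6 and 20.6 to 71.2, 2 of 3) were lower without overlap. The endothelial genes were higher without overlap, at 172 to 243 and 65.5 to 154 CPM with 2 of 3 rising, and the part of these lists was not tested.

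GMP-like cells, which give rise to neutrophils and monocytes and formed a single cluster, had lower histone levels beside higher S phase levels. The members summed to 930, 768, 977 and 622 CPM in TO 2d 0h, TO 4d 24h, TOE 2d 24h and TOE 4d 24h and to 460, 460, 303 and 323 at 4 h, and no 4 h library reached the others. Of 35 members 25 fell and none rose, against 9.09% of genes falling and 7.71% rising, with a median log2 fold change of −1.47. Hist1h2ah was at 36.6 to 44.5 CPM and 4.79 to 7.57 (−2.85 ± 0.17, adjusted p = 2.57e-05). With cells assigned by gates 13 members were called, and 484 of the 2197 gated cells were in the GMP-like cluster. The gate required no UMI of the B cell gene Cd79a.

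Of the S phase list in GMP-like cells 9 genes rose, among them Mcm4, Mcm5 and Pcna (0.76), the sliding clamp of replication, and 1 fell. The list summed to 1720 to 2134 CPM at other hours and 2268 to 2906 at 4 h. Histone UMIs per S phase UMI were 0.362 to 0.469 and 0.106 to 0.203, without overlap. Of 10 variant genes tested 7 fell, 5 of 16 chaperone genes rose, and H1f4 rose by 0.70. The mesenchymal genes in this class summed to 150 to 308 CPM at 4 h and 371 to 830 at other hours, without overlap and with 5 of 9 falling, and of the B lineage genes (291 to 479 and 396 to 749 CPM, overlapping) 6 of 10 fell. Median depth was 27895.5 to 41410 UMIs at 4 h and 15884 to 25120 at other hours, and the part of these differences was not tested.

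Immature neutrophil-like cells, which make the secondary granules and are leaving the cell cycle, were also lower at 4 h. The members summed to 1085, 743, 1209 and 1126 CPM at other hours and 560, 450, 390 and 328 at 4 h, without overlap. Of 37 members 27 fell and none rose, where 3.64% of genes fell and 2.71% rose, with a median of −1.69, and H2bc12 went from 22.6 to 54.3 CPM at other hours to 6.02 to 8.30 at 4 h (−2.64, adjusted p = 0.00183). The count was 11 without TOE 2d 4h, 17 without TOE 4d 4h, 17 without TO 2d 0h and 15 without TO 4d 4h, and 17 under gates. The class joined cluster 11, led by defensin genes such as Defa5, and cluster 13, led by Ngp and Lcn2, a secondary granule gene. Within cluster 11 the summed members did not overlap, at 375 to 827 CPM at 4 h and 1369 to 1923 at other hours, whereas within cluster 13, which held 69.6% of the cells at 4 h and 67.5% at other hours, they did, at 286 to 374 and 361 to 508. The mature neutrophil genes (165861 to 195471 CPM at 4 h and 223924 to 276784 at other hours, 2 of 9 falling), the mesenchymal genes (154 to 305 and 348 to 944, 3 of 9) and the mast cell/basophil genes (18.4 to 30.3 and 36.5 to 67.0, 2 of 7) were lower without overlap, and their part was not tested.

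In mature neutrophil-like cells only Hist1h2ah passed of 21 members tested, where 0.796% of genes fell and 0.796% rose. It stood at 21.8, 17.7, 8.48 and 11.1 CPM at other hours and 1.00, 2.32, 2.71 and 4.35 at 4 h (−2.58, adjusted p = 0.0271), and DESeq2 called 4, where it called 2.12% of genes lower. With the sets of arm and day as a block edgeR called 0, with 13 members at an unadjusted p under 0.05. The median log2 fold change of the 21 was −1.09, and the summed members, at 540 to 829 and 337 to 497 CPM, did not overlap. Without TOE 2d 4h, TO 2d 0h, TO 2d 4h, TO 4d 24h or TO 4d 4h edgeR called 0, with 9, 9, 7, 9 and 9 members at an unadjusted p under 0.05, and without TOE 4d 24h it called 2. It called 7 without a filter on low counts and 2 each under gates, at resolution 2, with hour alone and with the stricter doublet score. Within cluster 22, with 71.7% of the cells at 4 h and 44.4% at other hours, the summed members overlapped (347 to 579 and 501 to 716 CPM), and within cluster 21 they did not (310 to 432 and 540 to 669). Libraries differed within these pooled shares, since 1867 of the 2155 cells of TOE 4d 24h were in cluster 21. Cluster 25 stood at 1308 CPM in TO 2d 0h (303 cells) and 1337 in TOE 4d 24h (20 cells). The mesenchymal genes were 3.67-fold lower at 4 h, at 153 to 362 and 529 to 1357 CPM with 1 of 9 falling, and the mast cell/basophil genes were at 6.35 to 21.8 and 25.1 to 76.1, both without overlap, and their part was not tested.

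Early erythroid-like cells, a single cluster of dividing precursors, overlapped in their summed level. Under gates, which took largely other cells, the ratio of 4 h to other hours was lower, as given in the closing section. The members were at 1406, 1094, 1632 and 1140 CPM at other hours and at 1218, 940, 762 and 634 at 4 h, with TO 2d 4h above 2 of the other libraries. Of 37 members 14 fell and none rose, where 2.42% of genes fell and 3% rose, with a median of −1.09. Hist1h2ah, at 75.6 to 88.4 and 13.7 to 26.7 CPM (−2.25, adjusted p = 0.00140), did not overlap, but H2ac20, at 86.7 to 137 and 76.7 to 205 (0.09, adjusted p = 0.850), did.

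The linker histones of early erythroid-like cells went the other way, with H1f4 at 606, 499, 652 and 495 CPM at other hours and 2207, 1584, 1464 and 1010 at 4 h (1.38 ± 0.15, adjusted p = 0.00262). H1f1 (0.93) and H1f5 (0.87) rose as well, so 3 of 4 linker genes tested rose. The count of members was 8 without TOE 2d 24h, 6 without TOE 2d 4h, 9 without TOE 4d 4h, 8 without TO 2d 0h, 8 without TO 2d 4h and 5 without TO 4d 4h, and 23 without a filter on low counts (22 lower, 1 higher). The mesenchymal genes in this class summed to 144 to 309 CPM at 4 h and 372 to 916 at other hours, with 2 of 10 falling, and the endothelial genes to 50.6 to 63.1 and 64.1 to 107, with 0 of 6 called, both without overlap. Their part in the result was not tested.

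Late erythroid-like cells, rich in haemoglobin, were compared in 7 libraries because TOE 4d 24h held 0 of these cells. The members summed to 3555, 3935 and 4121 CPM in TO 2d 0h, TO 4d 24h and TOE 2d 24h and to 1513, 1814, 1680 and 1742 in TO 2d 4h, TO 4d 4h, TOE 2d 4h and TOE 4d 4h, a 2.29-fold difference of the means without overlap. Of 37 members 23 fell and none rose, where 1.31% of genes fell and 0.645% rose, with a median of −1.74. H2bc12 was at 153 to 159 and 39.2 to 59.7 CPM (−2.07, adjusted p = 0.0152). The S phase list overlapped (2233 to 3344 and 2513 to 3229 CPM).

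The late erythroid-like count was 0 without TOE 2d 24h, where 28 members had an unadjusted p under 0.05, 5 without TOE 4d 4h and 5 without TO 2d 0h, and 6 with the sets of arm and day as a block. Cluster 12 of this class came almost wholly from 1 library, with 1992 of its 2083 cells from TO 2d 4h. The haemoglobin gene Hbb was 16.6-fold lower at 4 h, at 3876 to 5424 CPM and 8794 to 112908 at other hours, without overlap, whereas Alas2, which makes haem, was at 1104 to 2030 and 1309 to 1526 CPM and overlapped. The stem and progenitor genes were higher at 4 h without overlap, at 26.1 to 34.2 and 12.6 to 17.8 CPM, with 0 of 2 called. The part of these genes in the histone result was not tested.

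Over all cells together, 18 of 39 members fell and none rose, where 1.02% of genes fell and 0.677% rose, and DESeq2 called 30, where it called 6.01% of genes lower. With the 4 sets of arm and day as a block, edgeR called 2 over all cells. By class, DESeq2 called lower at 4 h 27 members in small pre-B-like (beside 12.4% of genes), 22 in immature/mature B-like (9.35%), 9 in pro-B-like (4.53%), 24 in GMP-like (7.76%), 30 in immature neutrophil-like (5.38%), 20 in early erythroid-like (3.94%) and 28 in late erythroid-like cells (3.08%). The count over all cells by edgeR was 1 without TO 2d 4h and 0 without TOE 2d 4h, TOE 4d 4h, TO 2d 0h, TO 4d 24h or TO 4d 4h, where 32, 32, 31, 34 and 31 members had an unadjusted p under 0.05 by edgeR. Across the 9 classes tested, 19 members were called in 5 or more classes, with Hist1h2ah, Hist2h3c2 and Hist1h3b called in 8. The share of all genes called in 5 or more classes was not computed, and the classes share the same libraries. The 4 members called in no class were H2ac1, Hist1h2ai, Hist1h2ail1 and Hist2h2be.

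**Figure D4:**
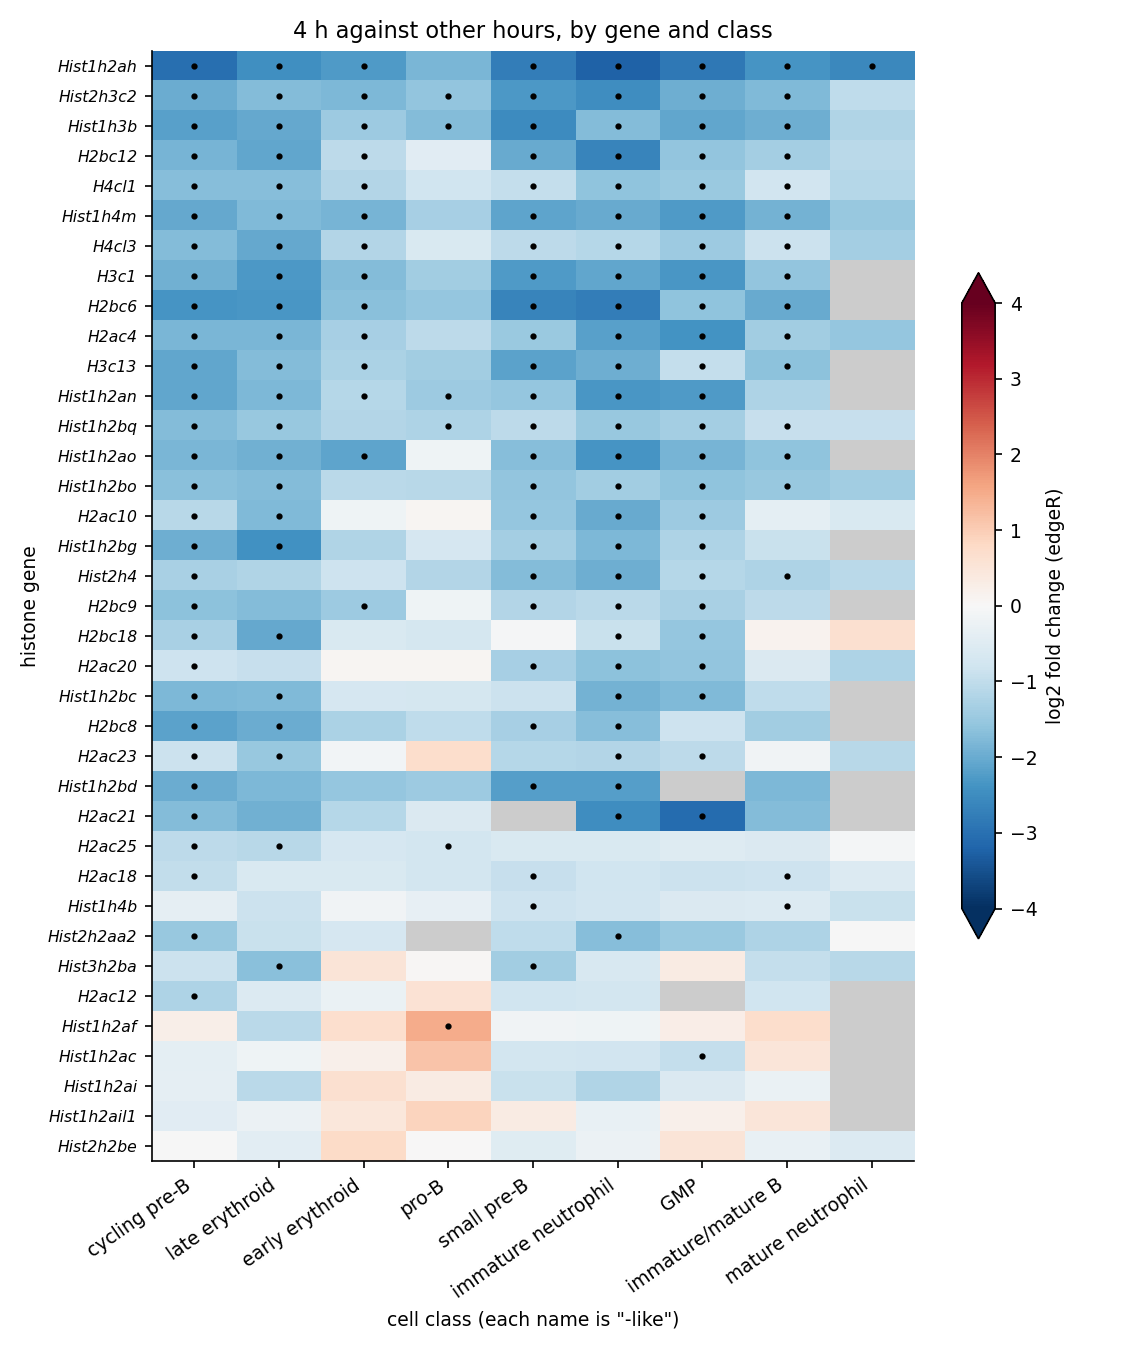
Log2 fold change of 4 h against other hours for the members tested in more than 1 class (rows) in 9 cell classes (columns), on a colour scale from −4 to 4, with a dot for an edgeR adjusted p under 0.05 and grey where a gene was not tested. Hist1h2ah is between −3.23 and −1.83 in all 9 classes and has a dot in 8, while Hist2h2be lies between −0.54 and 0.76 with no dot.

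Other small RNAs that lack a poly(A) tail were counted beside the members, by lists chosen after values were seen. The tRNA genes of cycling pre-B-like cells (702 listed, 552 with a UMI) summed to 525, 350, 366 and 1530 CPM in TO 2d 0h, TO 4d 24h, TOE 2d 24h and TOE 4d 24h and to 163, 218, 223 and 282 at 4 h, so the hours did not overlap and TOE 4d 24h was the highest. Of 158 tRNA genes tested 77 fell and none rose, where 7.06% of all genes tested in this class fell. The small nucleolar RNA genes (153 listed, 111 with a UMI) summed to 45.7 to 73.8 and 7.99 to 16.6 CPM, and 4 of 11 tested fell, among them Snord118 (−2.89) and Snord13 (−2.73).

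**Figure D5:**
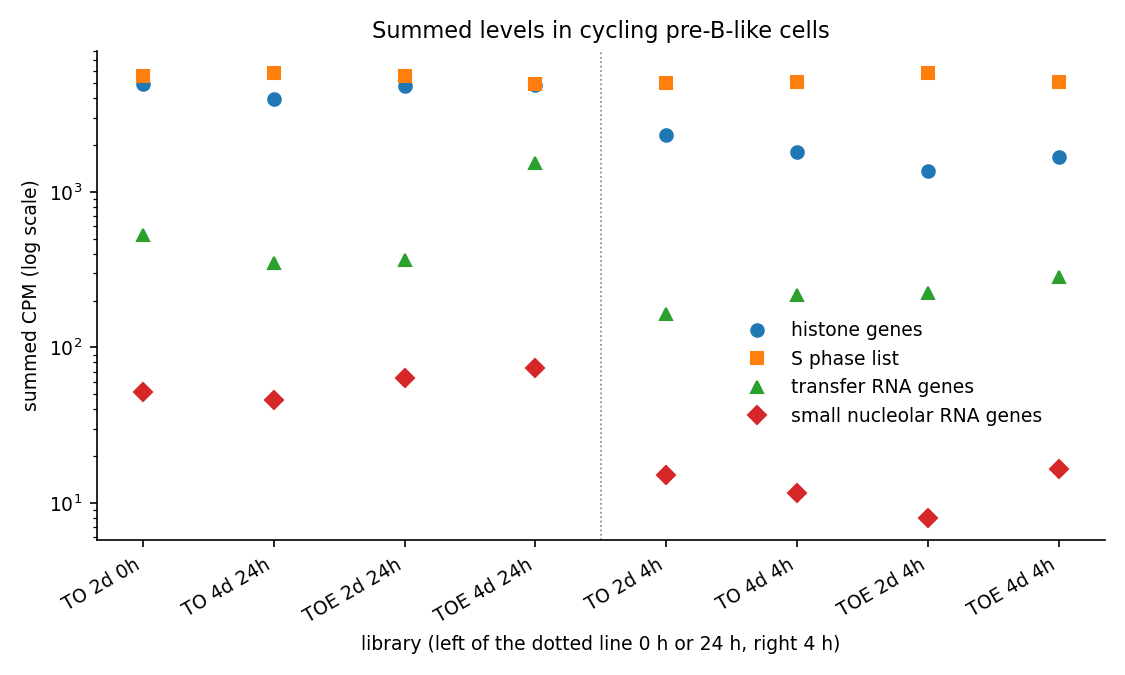
Summed CPM (log axis) in cycling pre-B-like cells of the histone members, the S phase list, the tRNA genes and the small nucleolar RNA genes. Each list has its own colour and marker, with 1 point per library. Libraries of 0 h or 24 h stand left of the dotted line and those of 4 h right of it. The histone, tRNA and small nucleolar RNA points separate by hour and the S phase points do not.

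The small nucleolar RNA sums were lower at 4 h without overlap in all 9 classes, and the tRNA sums in 8 of them. In GMP-like cells the tRNA genes were at 36.1 to 78.1 and 95.3 to 1067 CPM, with 18 of 25 falling beside 9.09% of all genes. The small nucleolar RNA genes there were at 4.41 to 7.83 and 20.8 to 225. In early erythroid-like cells tRNA sums overlapped (96.1 to 260 and 164 to 1435 CPM, 13 of 64 falling beside 2.42% of all genes). Histone genes outside the name rule were read too in cycling pre-B-like cells, with H4f3 at −1.19 and hist1h2ail2 at −1.30, both passing, and H2bu1 at −1.20 (adjusted p = 0.107). Whether capture of tailless RNA differed between the libraries was not tested.

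No member was called for the shock wave treatment. For TOE against TO, edgeR called 0 members in every one of the 9 classes and over all cells, where it called 0.00837% of genes (1 gene) in GMP-like cells and 0% in the others. DESeq2 also called 0 members in each, where it called 0.0596% of genes in pro-B-like, 0.00596% in cycling pre-B-like, 0.022% in immature/mature B-like, 0.0193% in late erythroid-like, 0.0586% in GMP-like, 0.00741% in immature neutrophil-like and 0.0715% in mature neutrophil-like cells and 0% in the others. At an unadjusted p under 0.05 by edgeR there were 5 members over all cells, 2 in pro-B-like, 5 in cycling pre-B-like, 3 in small pre-B-like, 5 in immature/mature B-like, 5 in early erythroid-like, 1 in late erythroid-like, 4 in GMP-like, 2 in immature neutrophil-like and 1 in mature neutrophil-like cells. As a share of those tested, the members at an unadjusted p under 0.05 were 12.8% beside 2.60% of all genes over all cells, 12.8% beside 4.38% in cycling pre-B-like, 8.33% beside 3.18% in small pre-B-like, 13.5% beside 3.99% in immature/mature B-like, 13.5% beside 3.80% in early erythroid-like, 11.4% beside 6.43% in GMP-like and 5.41% beside 2.88% in immature neutrophil-like cells. In pro-B-like (5.56% beside 10.2%), late erythroid-like (2.70% beside 3.80%) and mature neutrophil-like cells (4.76% beside 6.94%) the members' share was the lower. Without a filter on low counts 2 members were called in GMP-like and 2 in early erythroid-like cells, all 4 lower in TOE. The share of all genes called was not computed for that fit, so these calls are not read as a result about the members. Without regard to the test, the fitted change was negative for 33 of 39 members over all cells (median −0.30, beside 0.04 for all genes), for 34 of 37 in immature/mature B-like and 32 of 36 in small pre-B-like cells, and for 13 of 37 in late erythroid-like and 17 of 37 in immature neutrophil-like cells. A missed threshold at this number of libraries does not show that the arms were alike.

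The matched libraries, with no replicate, differed in size and direction. By summed level TOE was below TO in 8 of 9 classes at 2d 4h, all but late erythroid-like (ratio 1.11), and in 8 of 9 at 4d 4h, all but mature neutrophil-like (1.48), and at 4d 24h in 4 of the 8 classes with both libraries. The late erythroid-like exception rested on cluster 12, at 760 CPM in TO 2d 4h (1992 cells). Within cluster 17 TOE 2d 4h was the lower, at 1769 CPM beside 2168 in TO 2d 4h. The classes of a time point share the same 2 libraries. Cycling pre-B-like cells gave a ratio of the summed level of TOE over TO that was 0.586 at 2d 4h (exact conditional binomial 95% interval 0.579 to 0.594), 0.928 at 4d 4h (0.914 to 0.943) and 1.22 at 4d 24h (1.21 to 1.23). In GMP-like cells it was 0.659, 0.701 and 0.810 at the same 3 time points. In pro-B-like cells it was 0.662, 0.652 and 2.32, the last resting on TOE 4d 24h. These intervals cover counting error only and say nothing about variation between animals.

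The genes whose levels ran most like the summed members were read from 126 points, 1 per class and library over 16 classes, among 7080 genes, as a description whose points share libraries and depth. LOC103690190 (Pearson r = 0.90), LOC684797 (0.85), the histone gene H4f3 (0.83), Fbxo5 (0.71), whose product inhibits the anaphase-promoting complex, and the chromatin protein gene Hmgb2 (0.71) came first.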

How the data were processed

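Single-cell suspensions of the osteotomy tissue were sequenced as 10x 3′ libraries, and the authors deposited raw UMI counts from Cell Ranger 9.0.0, with genes as rows and barcodes as columns. The submitters' processing notes name mRatBN7.2, GRCh38, Seurat and R 4.0.3, and the annotation release is not given in the sources used here. How reads shared by near-identical copies were counted could move values between members. A barcode needed 200 detected genes and no more than 20% of its UMIs from mitochondria, which left 114232 of 116711, and barcodes with a doublet score above 0.25 were removed (2.15 to 4.13% per library, with scanpy 1.11.5, because automatic calls ran from 0 to 409 and were not used). Cells were clustered (Leiden, resolution 1) without the members but with other histone genes left in, and clusters were named from marker genes. Counts were summed per library and class (at least 20 cells) and fitted with edgeR 4.0.16 (quasi-likelihood test, TMM, filterByExpr) on hour, arm and day, with Benjamini-Hochberg adjustment over all genes tested and 0.05 as the threshold. DESeq2 1.42.0, other filters, resolution 2, gates, hour alone, the sets of arm and day as a block and leaving out each library were alternatives, and the fit was tested on simulated data. Intervals are 95% and cover counting error only.

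Named members were the 10 highest in all cells, the 10 highest in cycling pre-B-like cells and up to 20 called in 2 or more classes. The members and lists were chosen with earlier results of these data known. The late erythroid-like class was added after the data were seen.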

Additional observations from a re-analysis of the deposited data

Results flagged for a closer look

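In cycling pre-B-like cells, 1 of the 4 libraries from other hours lay apart from the rest in the summed level of the members. TO 4d 24h was at 3977 CPM, and the nearest library was TOE 2d 24h at 4815 CPM, a gap of 0.905 of the whole range. It was 1 of 86 groups of 4 libraries looked at, and chance sets a library apart in about 1 in 20. TO 4d 24h still lay above every 4 h library.

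In cluster 5 of the cycling pre-B-like cells every 4 h library was above every other library, with mean summed levels of 14193 and 5101 CPM, opposite to the class as a whole. These cells held 2975 to 4105 UMIs each at 4 h and 13412 to 18507 at other hours, by library mean. The 4 h mean rests on 259 cells against 3756, the members lead the genes that set this cluster apart, and the difference between clusters was not tested.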

How the results depend on the processing

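The labels carry no replicate numbers, but the libraries fall into 4 sets of arm and day, and a fit with these sets as a block in place of separate terms was added after the data were seen. It called 2 members over all cells, 9 in immature/mature B-like, 6 in late erythroid-like, 0 in mature neutrophil-like and 2 in pro-B-like cells, and within 1.5 times the counts above in the 5 others. With gates in place of clusters, the members called were 11 in cycling pre-B-like, 13 in GMP-like, 17 in immature neutrophil-like, 27 in pro-B-like and 2 in mature neutrophil-like cells, and the ratio of the summed level at 4 h to other hours was 0.417 in early erythroid-like (0.674 with clusters) and 0.610 in immature neutrophil-like cells (0.415), where histone UMIs per S phase UMI gave 0.413 (0.302). The gates took largely other cells, since 484 of 2197 gated GMP cells, 3809 of 13382 immature neutrophils and 200 of 1227 early erythroid cells were in the clusters of that name. The classes of those names held 1452, 7966 and 1221 cells by cluster. The gates of these classes also required no UMI of the B cell gene Cd79a. How many cells of the clusters this left out was not counted. DESeq2 called 30 over all cells, 10 in pro-B-like (9 lower, 1 higher) and 4 in mature neutrophil-like cells. Without a filter on low counts there were 23 in early erythroid-like (22 lower, 1 higher), 20 in pro-B-like (17 lower, 3 higher) and 7 in mature neutrophil-like cells, and for TOE against TO 2 in GMP-like and 2 in early erythroid-like cells. Resolution 2 gave 21 in pro-B-like and 2 in mature neutrophil-like cells, where hour alone and the stricter doublet score also gave 2 each. Apart from DESeq2, no share of all genes called was computed for these alternatives or for the fits with a library left out.

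With each library left out, the counts ran from 21 to 32 in cycling pre-B-like, 17 to 24 in GMP-like, 10 to 30 in small pre-B-like, 2 to 26 in immature/mature B-like, 1 to 13 in pro-B-like, 5 to 19 in early erythroid-like, 0 to 27 in late erythroid-like, 11 to 30 in immature neutrophil-like and 0 to 2 in mature neutrophil-like cells, and from 0 to 24 over all cells. The share of thinned early erythroid-like cells with a member UMI gave a ratio of 4 h to other hours of 0.9197 to 1.0031, highest without TOE 4d 4h. Hist2h2be turned positive at 0.156 under gates, 0.164 under the stricter cell filter and 0.0181, 0.131 and 0.144 without TOE 2d 4h, TOE 4d 4h and TOE 4d 24h, with a range of −0.144 to 0.144 over the libraries left out. Hist1h2af ran from −0.0387 (without TOE 4d 4h) to 0.666, with −0.0327 without TOE 4d 24h, none of them passing in cycling pre-B-like cells. Without cluster 12, 25 members were called in late erythroid-like cells, an alternative added after the data were seen. The causes were not tested. After the filter on low counts 21 members could be tested in mature neutrophil-like and 39 in cycling pre-B-like cells.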
